A study of Homo sapiens with 6 samples.

Results

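The genes described here are 40 genes around ATF4, the transcription factor of the amino acid stress response, and around the enzymes that make serine, glycine, folate one-carbon units and other amino acids. Each was found by its symbol in the deposited table, which holds 58024 genes, and each symbol matched 1 row. All 40 passed the filter on low values, an average FPKM of 0.1 or more across the libraries, as did 24468 genes in all. FPKM counts the fragments of a gene relative to transcript length (fragments per kilobase) and to all mapped fragments, so that levels of different genes can be set side by side per length. RNA-Seq covered 2 kinds of C4-2B cells, parental and enzalutamide resistant, with 3 libraries each. C4-2B is a human prostate cancer line of the LNCaP lineage that grows without testicular androgen, and enzalutamide is an antiandrogen drug used against this cancer. The resistant cells had been passaged in enzalutamide rising from 1 to 20 µM for at least 6 months, and the surviving cells were pooled and kept in 5 µM. The parental cells were passaged in dimethyl sulfoxide, given as 1% in the study's design text, while the methods state a lower upper limit for the vehicle. RNA was taken after exposure to 10 µM enzalutamide. Whether the parental cells received this dose is not clear from the sources. Nothing in the labels says whether the libraries of a group came from separate cultures, so the p values below measure the spread between libraries, which may be technical.

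When amino acids run short or proteins misfold, kinases phosphorylate the translation factor eIF2, bulk protein synthesis falls, and the mRNA of ATF4 is translated more. ATF4 protein then switches on genes for amino acid synthesis, amino acid uptake and tRNA charging, and, under lasting stress, genes that slow growth. Among its known targets are ASNS, the serine synthesis enzymes and the mitochondrial folate enzymes. Much of this control of ATF4 acts on translation, which an RNA level does not show. Serine made from a glycolysis intermediate gives a carbon to folate when it is turned into glycine. This happens in the cytosol and in mitochondria, with a separate set of enzymes in each.

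The libraries summed to between 792975 and 870110 FPKM. No read counts are in the table. Steps between the low values of single-transcript genes put the depth at about 13500000 to 20400000 reads per library for fragments of 200 bases, at which 1 read on a transcript of 2000 bases is worth 0.0272 to 0.0411 FPKM. A short non-coding RNA, RMRP, took 18.4% to 21.5% of the summed FPKM in parental libraries and 11.4% to 12.6% in the resistant libraries, while RPPH1 was listed at 0 in parental libraries and took 10.7% to 11.6% in the resistant ones. Median-of-ratios scaling, which such genes influence less, moved the median log2 fold change of all genes up by 0.102. Where this changes a call on a member it is said beside it. Of 8 markers of LNCaP-lineage cells, all were above 0 in every library, with summed levels of 4035 to 4736 FPKM in the parental and 979.9 to 1077 FPKM in the resistant libraries. KLK3, the gene of prostate-specific antigen, fell from 2556 ± 274 to 44 ± 2.58 FPKM (SD, n = 3 each). The 4 leukocyte markers summed to at most 1.08 FPKM and the 4 endothelial markers to at most 1.14 FPKM in any library. The 5 fibroblast markers summed to 6.65 to 8.92 FPKM in the parental and 8.26 to 14.7 FPKM in the resistant libraries. DCN was at 0 in all parental libraries and at 3.63, 3.78 and 4.35 FPKM in the resistant ones. LUM had parental and resistant means of 0.0604 and 0.969 FPKM, and both were higher in the test used below. COL1A1, with means of 6.71 and 4.39 FPKM, and COL3A1, with 0.863 and 1.10 FPKM, did not pass it. COL1A2 was at most 0.132 FPKM in any library and was not tested. The part of these markers in the results below was not tested, and in such bulk samples fewer cells of a kind and less RNA per cell cannot be told apart.

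Across the members, the resistant cells had lower mRNA for 2 of the 3 serine synthesis genes, for the transsulfuration genes CTH and CBS and for 5 of the 6 stress effectors. They had higher mRNA for 3 of the 4 mitochondrial folate enzymes and for GLDC and AMT of glycine breakdown. Of the 40 members, 8 were higher and 19 were lower in the resistant cells at an adjusted p below 0.05 (two-sided limma test on log2 of FPKM with 0.1 added, with Benjamini-Hochberg adjustment over all genes tested), and 13 did not pass. Over all genes tested, 44.4% were called, and 22.1% were called higher and 22.3% lower, whereas 20.0% of the members were higher and 47.5% lower. Most members are well expressed genes. Of the 32 members with a mean of at least 10 FPKM, 6 were higher and 15 lower, which is 18.8% and 46.9%. Among all 8936 genes at that level, 25.2% were called higher and 31.6% lower. The median log2 fold change was −0.27 over the members and −0.05 over all genes tested. The share of members called higher was thus close to that of all genes, and the share called lower was above it. All 3 resistant values lay above the 3 parental values in 11 members and below them in 21 members, and the groups overlapped in 8. Thus 80.0% of the members did not overlap, against 54.8% of all genes tested, of which 26.6% lay above and 28.1% below. Of the 40 members, 5 were called higher and 8 lower with a change of at least 2-fold on the log2 scale. Of the 24468 genes tested, 3659 (15%) were higher and 3320 (13.6%) lower by that much. The shares for overlap and for 2-fold change were not computed among genes of at least 10 FPKM, the level of most members. The summed level of the 40 members went from 3147 ± 130 to 2579 ± 90.9 FPKM (SD, n = 3 each). The members lie on 17 chromosomes, with at most 5 of them on any 1 chromosome.

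**Figure D1:**
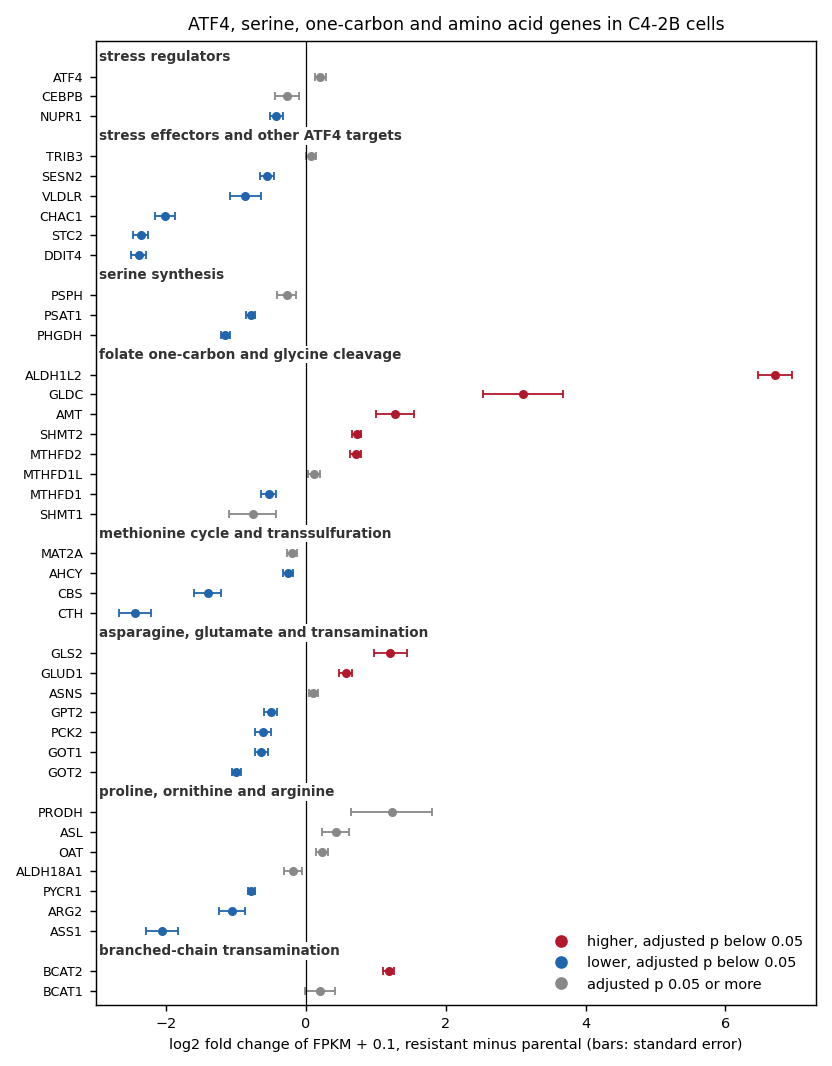
Log2 fold change of FPKM + 0.1, resistant minus parental, for each of the 40 members, grouped by role, with points for the limma estimate, bars for its standard error and colours for the call. The 8 higher members sit mostly among the folate and glycine genes, with ALDH1L2 farthest to the right at 6.71, and CTH, DDIT4 and STC2 lie farthest to the left.

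ATF4 itself did not pass the threshold. The gene lies on chromosome 22 (GRCh38, 39519695 to 39522683), and its mRNA was at 158, 154 and 148 FPKM in parental libraries and at 168, 193 and 171 FPKM in resistant libraries. All resistant values lay above the parental ones, yet the difference was small, at 0.21 in log2 fold change (limma, standard error, SE, 0.07, Benjamini-Hochberg adjusted p = 0.0627). ATF4 passed the threshold as higher under median-of-ratios scaling (log2 fold change 0.31, adjusted p = 0.0214 from limma with Benjamini-Hochberg adjustment) and under quantile normalization. CEBPB, which encodes a bZIP factor that can pair with ATF4, had overlapping values of 12.3 to 17.9 and 10.6 to 13.4 FPKM. NUPR1, a small chromatin protein induced by many stresses, was the member of this group that changed. It fell from 184, 187 and 192 FPKM across the parental libraries to 137, 159 and 127 FPKM in the resistant ones, a change of −0.42 on the log2 scale (SE 0.09, limma, Benjamini-Hochberg adjusted p = 0.0109). Without the mean-variance trend in limma its adjusted p was 0.0536.

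Of the 6 stress effectors among the members, 5 fell in the resistant cells and none rose. Among known targets of ATF4 that are not members, PPP1R15A and DDIT3 rose and ATF3 fell. DDIT4, also called REDD1, restrains the growth kinase mTORC1. It was at 271, 263 and 279 FPKM in parental libraries and at 54.0, 44.2 and 57.8 FPKM in resistant libraries. The groups were far apart, and the level was 5.21-fold lower, which is −2.39 in log2 fold change (limma, SE 0.11, Benjamini-Hochberg adjusted p = 2.43e-05). Its relative DDIT4L, which is not a member, went the other way, with means of 2.75 FPKM in parental and 27.3 FPKM in resistant cells. STC2, a secreted glycoprotein induced by endoplasmic reticulum stress, was at 51.5, 43.8 and 51.2 FPKM and then at 9.26, 10.2 and 8.82 FPKM. This is 5.18-fold lower (log2 fold change −2.36, SE 0.11, limma, Benjamini-Hochberg adjusted p = 2.42e-05). CHAC1 cleaves glutathione and is a common marker of ATF4 activity. Its values were 17.7, 16.1 and 18.8 FPKM in parental cells and 4.0, 4.95 and 3.93 FPKM in resistant cells, a change of −2.01 on the log2 scale (SE 0.14, limma, Benjamini-Hochberg adjusted p = 1.06e-04). SESN2, a leucine sensor that also holds back mTORC1, fell less, from 11.9 ± 0.483 to 8.05 ± 0.311 FPKM (SD, n = 3 each). VLDLR, a lipoprotein receptor, fell from 8.01 ± 1.76 to 4.34 ± 0.767 FPKM (limma, Benjamini-Hochberg adjusted p = 0.0194), and without resistant replicate 1 its adjusted p was 0.0560. An antisense RNA overlaps it, VLDLR-AS1, with mean values of 2.15 FPKM in parental and 0.500 FPKM in resistant cells. TRIB3, a pseudokinase that feeds back on ATF4, was the exception, with 49.2, 52.8 and 48.1 against 54.3, 54.3 and 49.8 FPKM and a log2 fold change of 0.08 (limma, Benjamini-Hochberg adjusted p = 0.439).

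**Figure D2:**
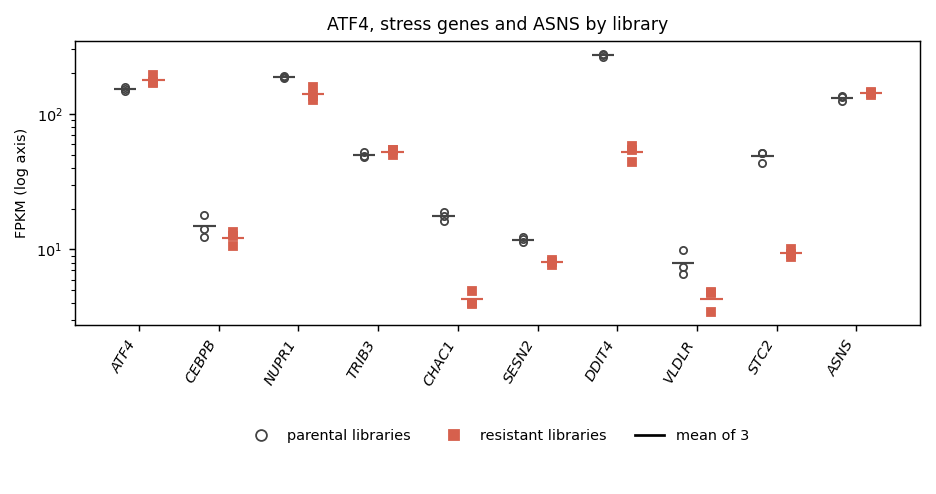
FPKM on a log axis in each library for ATF4, CEBPB, NUPR1, 6 stress genes and ASNS, with open circles for parental and filled squares for resistant libraries and a line at each mean of 3. The means of ATF4, TRIB3 and ASNS differ by at most 1.16-fold between the groups, while CHAC1, DDIT4 and STC2 drop without overlap.

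ATF4 binds DNA with a C/EBP protein at C/EBP-ATF response elements. The promoters of the members were searched for the letters of this element, TGATGNAAN, on both strands, in the 250 bases before and 50 bases after each RefSeq start (GRCh38.p14). A promoter was listed for 32 of the 40 members, and not for ALDH1L2, BCAT2, GPT2, NUPR1, PRODH, PSPH, PYCR1 and SHMT2. The letters were found in 5 of the 32 members, or 15.6%, and in 4.45% of the 27305 genes with a listed promoter. Counted by promoter, as some genes have several starts, they were in 7 of 49 promoters of members (14.3%) and in 3.61% of all promoters. Of the 5 members, CHAC1 and GOT1 were lower in the resistant cells and ASNS, BCAT1 and MTHFD1L did not pass the threshold. Of the 27 members without the letters in these windows, 5 were higher, 14 were lower and 8 did not pass. The sites are shown because ASNS and CHAC1, both known targets of ATF4 with these letters near the start, had log2 fold changes of 0.11 and −2.01. Each is written along the strand of its gene with the element in capitals and 10 bases on either side. In CHAC1 and GOT1 the element reads TGATGCAAC on the opposite strand.
ASNS, chr7:97872458-97872486, minus strand, 68 bases before the start: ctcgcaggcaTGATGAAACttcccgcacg
CHAC1, chr15:40953251-40953279, plus strand, 210 bases before the start: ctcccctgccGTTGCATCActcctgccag
GOT1, chr10:99430805-99430833, minus strand, 199 bases before the start: aattgcattgGTTGCATCAttctcggcag
BCAT1, chr12:24949131-24949159, minus strand, 48 bases before the start: gtcttcctgcTGATGCAATccgctaggtc
MTHFD1L, chr6:150866347-150866375, plus strand, 129 bases before the start: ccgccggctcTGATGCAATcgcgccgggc
A match of letters describes the sequence and does not show that the factor binds there.

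A list of 16 other genes of this stress response was looked up, with the eIF2 kinases, phosphatase subunits and the exchange factor eIF2B that act upstream of ATF4, and stress factors of which several, PPP1R15A, DDIT3 and ATF3 among them, are known to be induced downstream of it. Of these, 5 were higher and 1 was lower, beside 22.1% and 22.3% of all genes tested. PPP1R15A, or GADD34, which brings a phosphatase to eIF2, rose from 2.31 ± 0.174 to 11.5 ± 0.303 FPKM (SD, n = 3 each), which is 2.27 in log2 fold change (limma, SE 0.13, Benjamini-Hochberg adjusted p = 5.90e-05). DDIT3, or CHOP, a pro-apoptotic bZIP factor, rose from 29.7 ± 1.52 to 44.4 ± 2.24 FPKM. ATF3, another stress-induced bZIP factor, was the 1 gene that fell, from 21.9 ± 0.315 to 13.8 ± 1.03 FPKM.

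The mRNA of the first 2 enzymes of serine synthesis was lower in the resistant cells. PHGDH oxidises a glycolysis intermediate and commits its carbon to serine. The gene lies on chromosome 1 (GRCh38, 119648411 to 119744218) and had 276, 251 and 281 FPKM in parental libraries and 120, 124 and 118 FPKM in resistant libraries. All resistant values were less than any parental value, and the level was 2.22-fold lower, a change of −1.15 on the log2 scale (SE 0.07, limma, Benjamini-Hochberg adjusted p = 5.68e-05). PSAT1 carries out the next step, a transamination from glutamate. It fell from 122, 123 and 120 FPKM to 69.0, 74.7 and 68.3 FPKM, which is −0.79 in log2 fold change (limma, SE 0.06, Benjamini-Hochberg adjusted p = 2.04e-04). PSPH, the phosphatase of the last step, did not pass the threshold. Its values of 61.6, 47.0 and 64.0 FPKM overlapped with 48.3, 50.1 and 43.5 FPKM in the resistant cells, with a log2 fold change of −0.27 (limma, SE 0.14, Benjamini-Hochberg adjusted p = 0.153). Without parental replicate 1, which had the low value, its adjusted p was 0.0177. PSPHP1, a pseudogene copy of PSPH, had means of 3.97 and 0.949 FPKM.

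Of the 8 members in folate metabolism and glycine cleavage, 5 were higher, 1 was lower and 2 did not pass. The higher ones work in mitochondria, where folate carries the carbon taken from serine. SHMT2 turns serine into glycine in mitochondria and loads the carbon onto folate. It lies on chromosome 12 (GRCh38, 57229573 to 57234935). Its level was 246, 228 and 248 FPKM in parental libraries and 398, 390 and 406 FPKM in resistant libraries. The groups were well apart, with a 1.65-fold higher mean and a log2 fold change of 0.73 (limma, SE 0.06, Benjamini-Hochberg adjusted p = 2.08e-04). NDUFA4L2 overlaps SHMT2 on the other strand and had means of 4.83 and 29.9 FPKM, and whether strand was used in counting is not stated. MTHFD2, the next enzyme, oxidises the folate-bound carbon, and lies on chromosome 2 (74186172 to 74217565). It rose from 104, 105 and 103 FPKM to 159, 185 and 168 FPKM, a change of 0.71 on the log2 scale (SE 0.07, limma, Benjamini-Hochberg adjusted p = 5.07e-04). MTHFD1L, which releases formate for export to the cytosol, did not pass, with 17.4, 17.5 and 19.5 FPKM against 20.4, 19.3 and 19.4 FPKM.

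ALDH1L2 showed the largest change of any member. It encodes the mitochondrial formyltetrahydrofolate dehydrogenase, which burns the one-carbon unit to carbon dioxide and makes NADPH. The gene lies on chromosome 12 (GRCh38, 105019784 to 105107643). Its values were 0.251, 0.112 and 0.174 FPKM in parental libraries and 28.8, 31.2 and 25.8 FPKM in resistant libraries. The gene thus went from a low level to one above that of MTHFD1L. The means differ 160-fold, and the log2 fold change was 6.71 (SE 0.24, limma, Benjamini-Hochberg adjusted p = 1.22e-05). Since the parental level is near the added constant, the log2 fold change was 4.65 with a constant of 1 FPKM and 7.31 with 0.01 FPKM. KIAA1033 and C12orf45 overlap it on the other strand, at 23.7 and 37.5 FPKM in the parental and 33.4 and 25.4 FPKM in the resistant cells, so that neither shows a change of this size.

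The cytosolic folate enzymes among the members were not called higher. MTHFD1, a cytosolic enzyme with several folate activities, fell from 121, 115 and 134 FPKM to 76.4, 96.2 and 83.1 FPKM, which is −0.53 in log2 fold change (limma, SE 0.11, Benjamini-Hochberg adjusted p = 0.00794). SHMT1 is the cytosolic counterpart of SHMT2. Its values were 139, 57.1 and 61.6 FPKM in parental cells and 43.9, 44.7 and 51.2 FPKM in resistant cells, so that parental replicate 0 stood apart from its own group. The log2 fold change was −0.76 (limma, Benjamini-Hochberg adjusted p = 0.114), and −0.35 without that library (adjusted p = 0.0515).

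GLDC and AMT, which break glycine down, rose from low levels. GLDC, the decarboxylase of the glycine cleavage system, was at 1.65, 0.391 and 0.605 FPKM in parental libraries and at 8.45, 10.7 and 4.06 FPKM in resistant libraries. The values vary widely within each group but do not overlap, and the log2 fold change was 3.10 (SE 0.57, limma, Benjamini-Hochberg adjusted p = 0.00546). AMT, the aminomethyltransferase of the same system, rose from 1.74, 1.09 and 1.27 FPKM to 3.77, 2.69 and 3.88 FPKM, a change of 1.28 on the log2 scale (SE 0.27, limma, Benjamini-Hochberg adjusted p = 0.00909). Genes on the same strand overlap AMT, and their values went the same way: NICN1 had means of 2.80 and 5.08 FPKM and RP11-949J7.8 had 1.80 and 5.71 FPKM. The division of reads between them is therefore uncertain. The other components of that system were in a list of other folate genes. GCSH, its carrier protein, had means of 2.99 and 1.10 FPKM and did not pass, and DLD, a subunit shared with other complexes, fell from 84.2 to 61.4 FPKM.

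**Figure D3:**
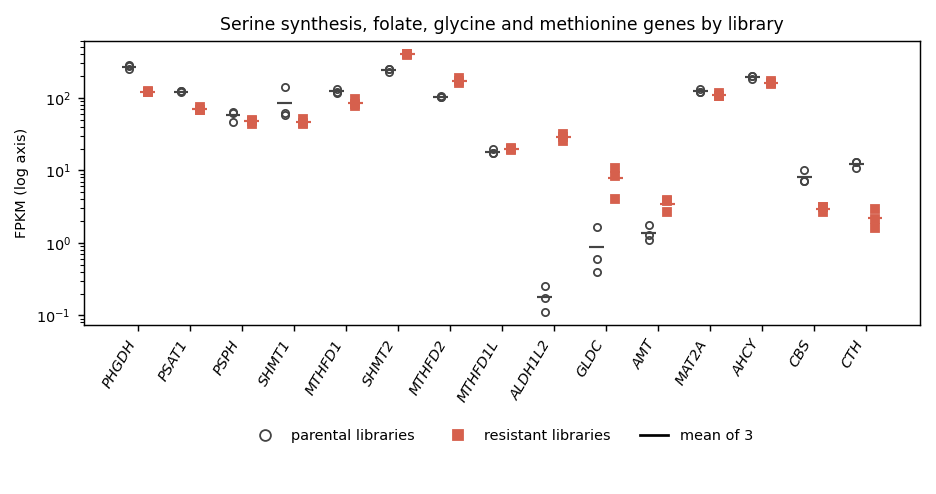
FPKM on a log axis in each library for 15 members of serine synthesis, folate, glycine and methionine metabolism, with open circles for parental and filled squares for resistant libraries and a line at each mean of 3. PHGDH and PSAT1 drop while SHMT2 and MTHFD2 climb, ALDH1L2 climbs from 0.112 FPKM or more to above 25 FPKM, and parental replicate 0 is the high circle at SHMT1.

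Ratios within a library do not change when a library is multiplied by a factor, and they set these arms side by side. The level of SHMT2 was 0.893, 0.910 and 0.884 times that of PHGDH in parental libraries and 3.31, 3.14 and 3.43 times that in the resistant libraries. MTHFD2 over PSAT1 went from 0.852 ± 0.00347 to 2.41 ± 0.0962 (SD, n = 3 each). In both ratios the groups lay far apart and the spread within a group was small. The mitochondrial to cytosolic ratio of MTHFD2 over MTHFD1 went from 0.849 ± 0.0761 to 2.01 ± 0.0804. The ratio of SHMT2 to SHMT1 was 1.77, 3.99 and 4.03 in the parental libraries, where parental replicate 0 again stood apart, and 9.07, 8.74 and 7.93 in the resistant libraries. Summed over PHGDH, PSAT1 and PSPH, the level was 448 ± 23.8 FPKM in parental and 239 ± 9.46 FPKM in resistant cells. For SHMT2, MTHFD2, MTHFD1L and ALDH1L2 together it was 363 ± 10.4 and 617 ± 10.0 FPKM. Each of the 9 sums and ratios computed separated the groups, with an exact two-sided permutation p of 0.1 (0.1 after Benjamini-Hochberg adjustment), the smallest that 3 against 3 libraries allow. For the ratios of SHMT2 to PHGDH and SHMT1 and of MTHFD2 to PSAT1 and MTHFD1 this was fixed beforehand. In each, the upper gene alone lay higher and the lower gene alone lay lower without overlap. Their p values thus add nothing to the results for the single genes.

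**Figure D4:**
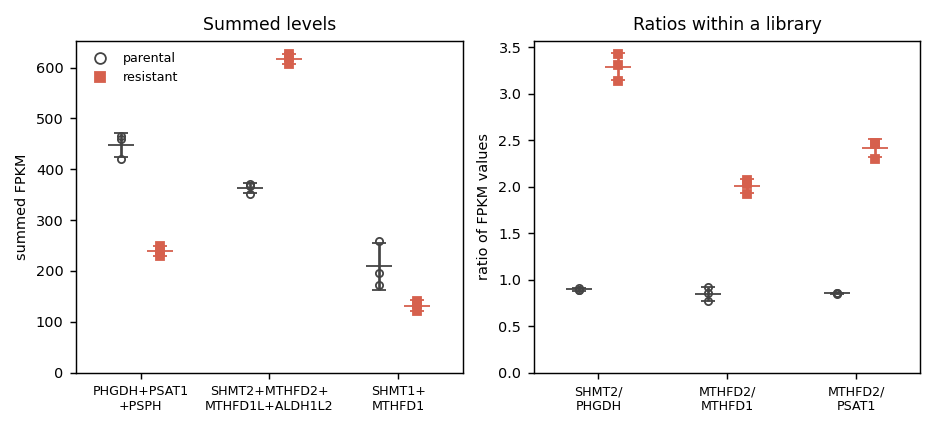
Left, summed FPKM of the serine synthesis genes, of 4 mitochondrial folate genes and of SHMT1 with MTHFD1, and right, the ratios of SHMT2 to PHGDH, MTHFD2 to MTHFD1 and MTHFD2 to PSAT1 within each library, with points for libraries and bars for mean ± SD (n = 3). The parental values of these 3 ratios lie below 1 and the resistant values between 1.92 and 3.43, with no overlap.

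Other folate genes were mostly lower where they changed. Of 19 genes looked up, 18 were tested, with 2 higher and 8 lower, beside 22.1% and 22.3% of all genes tested. FOLH1, which encodes the folate hydrolase known as prostate-specific membrane antigen and is also 1 of the LNCaP-lineage markers above, fell from 284 ± 18 to 83.6 ± 5.89 FPKM (SD, n = 3 each), which is −1.76 in log2 fold change (limma, SE 0.08, Benjamini-Hochberg adjusted p = 2.60e-05). FPGS adds glutamates that keep folate inside the cell, and fell from 71.5 ± 2.73 to 31.1 ± 2.54 FPKM. GGH takes these glutamates off again, and rose from 18.8 ± 3.58 to 41.1 ± 6.46 FPKM. MTHFD2L, the mitochondrial relative of MTHFD2, rose from 6.29 ± 0.481 to 12.7 ± 0.426 FPKM. FPGS and GGH, which act in opposite directions on the same molecule, thus changed in opposite directions.

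In the methionine cycle and transsulfuration, 3 of the 4 members were lower and none was higher. CTH, the lyase that makes cysteine from cystathionine, was at 10.9, 12.9 and 12.9 FPKM in parental libraries and at 1.62, 2.16 and 2.90 FPKM in resistant libraries. The groups did not overlap, and the level was 5.49-fold lower, with a log2 fold change of −2.44 (limma, SE 0.23, Benjamini-Hochberg adjusted p = 3.53e-04). CBS, the enzyme before it, fell from 7.16, 7.06 and 9.96 FPKM to 3.10, 3.11 and 2.66 FPKM, a change of −1.40 on the log2 scale (SE 0.19, limma, Benjamini-Hochberg adjusted p = 0.00150). CBSL, a near-identical copy of CBS, had means of 0.502 and 0.147 FPKM, so that the division of reads between the copies is uncertain. AHCY, which clears the product of methylation reactions, went from 193 ± 10.3 to 162 ± 8.39 FPKM (limma, Benjamini-Hochberg adjusted p = 0.0279). The small difference in AHCY did not pass under either other scaling (adjusted p = 0.127 with median-of-ratios scaling), nor without parental replicate 0, parental replicate 2, resistant replicate 0 or resistant replicate 2, when its adjusted p lay between 0.0812 and 0.0898. A lncRNA on the same strand, RP4-785G19.5, overlaps AHCY and had means of 0.359 and 9.56 FPKM. MAT2A, which makes S-adenosylmethionine, did not pass, with means of 126 and 110 FPKM.

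Of 17 other methionine cycle genes, 15 were tested, with 6 higher and 2 lower, beside 22.1% and 22.3% of all genes tested. Both lower genes encode methyltransferases that use S-adenosylmethionine. GNMT, which methylates glycine, fell from 26.7, 21.4 and 22.8 FPKM to 0.545, 1.07 and 1.48 FPKM, which is −4.48 in log2 fold change (limma, SE 0.34, Benjamini-Hochberg adjusted p = 1.42e-04). NNMT, which methylates nicotinamide, fell from 16.7 ± 2.89 to 0.946 ± 0.572 FPKM (SD, n = 3 each), with a log2 fold change of −4.14. The higher genes changed less. AHCYL2, a relative of AHCY, rose from 9.11 ± 0.976 to 17.1 ± 2.73 FPKM, and MAT2B, the regulatory partner of MAT2A, from 26.6 ± 0.283 to 37.4 ± 2.98 FPKM.

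Of the 7 enzymes around asparagine, glutamate and transamination, 2 were higher, 4 were lower and ASNS did not pass. ASNS makes asparagine and is the textbook ATF4 target. It was at 125, 134 and 136 FPKM in parental cells and at 138, 142 and 145 FPKM in resistant cells, a change of 0.11 on the log2 scale (SE 0.06, limma, Benjamini-Hochberg adjusted p = 0.224). It passed as higher under median-of-ratios scaling (log2 fold change 0.21, adjusted p = 0.0245 from limma with Benjamini-Hochberg adjustment) and under quantile normalization. The 3 transaminases of this group fell. GOT2, the mitochondrial aspartate transaminase, went from 144 ± 4.78 to 72.4 ± 3.67 FPKM (SD, n = 3 each), with a log2 fold change of −0.99. GOT1, its cytosolic partner, went from 84.5 ± 8.27 to 54.2 ± 1.73 FPKM, and GPT2, the mitochondrial alanine transaminase, from 60.2 ± 2.09 to 42.6 ± 4.42 FPKM. PCK2, which makes phosphoenolpyruvate in mitochondria, went from 103 ± 12.7 to 67.2 ± 4.94 FPKM. These 4 genes passed the test without overlap between the groups.

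GLS2 and GLUD1 were the genes of this group that rose. GLS2 is a mitochondrial glutaminase. It was at 10.6, 7.72 and 7.90 FPKM in parental libraries and at 15.2, 26.7 and 20.1 FPKM in resistant libraries, which is 1.21 in log2 fold change (limma, SE 0.23, Benjamini-Hochberg adjusted p = 0.00667). GLUD1, glutamate dehydrogenase, rose from 47.3, 40.3 and 47.3 FPKM to 65.0, 64.4 and 70.5 FPKM, a change of 0.57 on the log2 scale (SE 0.09, limma, Benjamini-Hochberg adjusted p = 0.00310). Copies of GLUD1 were listed at low levels, the highest being GLUD1P7 at 2.61 FPKM in resistant cells. The transaminases that were lower and GLUD1, which was higher, all interconvert glutamate and its keto acid.

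In proline, ornithine and arginine metabolism, 3 of 7 members were lower, none was higher and 4 did not pass. ASS1, which joins citrulline and aspartate on the way to arginine, was at 21.7, 25 and 19.8 FPKM in parental cells and at 4.05, 7.2 and 4.92 FPKM in resistant cells. It was 4.11-fold lower, which is −2.05 in log2 fold change (limma, SE 0.23, Benjamini-Hochberg adjusted p = 6.34e-04). ASL carries out the next step. It had 28.6, 27.0 and 26.6 FPKM against 37.8, 47.7 and 28.0 FPKM, so the resistant libraries spread widely, and it did not pass (limma, Benjamini-Hochberg adjusted p = 0.115). Without resistant replicate 2, the lowest of them, its adjusted p was 0.0169 with a log2 fold change of 0.63. ARG2, the mitochondrial arginase, fell from 35.5, 24.0 and 26.4 FPKM to 12.9, 16.1 and 12.0 FPKM, a change of −1.05 on the log2 scale (SE 0.19, limma, Benjamini-Hochberg adjusted p = 0.00457). VTI1B overlaps ARG2 on the other strand, with means of 57.8 and 57.2 FPKM. PYCR1, the last enzyme of proline synthesis, fell from 212 ± 1.80 to 123 ± 2.65 FPKM (SD, n = 3 each), with a log2 fold change of −0.78.

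The step before PYCR1, ALDH18A1, had overlapping values of 72.2 to 94.9 and 68.9 to 80.7 FPKM, and without parental replicate 1 its adjusted p was 0.0441 (limma with Benjamini-Hochberg adjustment). OAT, which links ornithine with proline, went from 27.9 ± 0.782 to 32.9 ± 2.87 FPKM and passed as higher under both other scalings (adjusted p = 0.0191 and 0.0235 from limma with Benjamini-Hochberg adjustment) and without resistant replicate 0 (adjusted p = 0.0339). PRODH, which breaks proline down, was at 0.0257, 0.222 and 0 FPKM and at 0.261, 0.360 and 0.214 FPKM. These levels are near the lower end of the genes tested, and PRODH is the only member with a mean below 1 FPKM. It passed as higher only when parental replicate 1 was left out (adjusted p = 0.0386).

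Of 18 other genes of glutamate, proline, urea and creatine metabolism, 15 were tested. Of these, 4 were higher and 4 lower, beside 22.1% and 22.3% of all genes tested. NAGS, which makes the activator of the urea cycle, rose from 0.322 ± 0.107 to 4.71 ± 0.200 FPKM (SD, n = 3 each), which is 3.54 in log2 fold change (limma, SE 0.29, Benjamini-Hochberg adjusted p = 1.91e-04). SDSL, a relative of serine dehydratase, rose from 11.1 ± 0.661 to 23.3 ± 1.36 FPKM. GAMT, which methylates guanidinoacetate to creatine, fell from 155 ± 13.1 to 51.9 ± 4.50 FPKM. PYCRL, a further proline synthesis enzyme, fell from 59.5 ± 4.17 to 29.8 ± 3.41 FPKM, so that it and PYCR1 both fell.

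Both transaminases of the branched-chain amino acids are members, and 1 of them passed the threshold. BCAT2, the mitochondrial enzyme, rose from 35.1, 32 and 36.1 FPKM to 77.1, 78.8 and 78.9 FPKM. Its 3 resistant values were close together, and the mean was 2.28-fold higher, a change of 1.19 on the log2 scale (SE 0.07, limma, Benjamini-Hochberg adjusted p = 7.00e-05). BCAT1, the cytosolic enzyme, was at 8.64, 7.55 and 5.78 against 7.31, 10.4 and 7.49 FPKM, and did not pass. The ratio of BCAT2 to BCAT1 within a library went from 4.85 ± 1.21 to 9.54 ± 1.73 (SD, n = 3 each). All 13 genes that break the resulting keto acids down were tested, with 5 higher and 6 lower, beside 22.1% and 22.3% of all genes. MCCC2, a subunit of the carboxylase of leucine breakdown, rose from 42.8 ± 4.84 to 205 ± 20.6 FPKM (SD, n = 3 each), which is 2.26 in log2 fold change (limma, SE 0.11, Benjamini-Hochberg adjusted p = 3.19e-05). MCCC1, the other subunit of that carboxylase, fell from 71.0 ± 12.1 to 33.9 ± 11.5 FPKM (limma, Benjamini-Hochberg adjusted p = 0.0123). HIBADH, of valine breakdown, rose from 28.4 ± 1.35 to 65.3 ± 3.54 FPKM. DBT, the core subunit of the branched-chain keto acid dehydrogenase, fell from 40.2 ± 1.68 to 14.4 ± 1.34 FPKM, and PPM1K, the phosphatase that activates this complex, from 26.4 ± 2.95 to 6.21 ± 0.596 FPKM. BCKDHA, a catalytic subunit of the same complex, rose from 14.3 ± 3.13 to 56.2 ± 3.78 FPKM, so that subunits of the complex changed in opposite directions.

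The cytosolic aminoacyl-tRNA synthetases, which charge tRNAs with amino acids and of which several are known ATF4 targets, were lower as a rule. Of 20 genes, 14 were lower and 1 was higher, with a median log2 fold change of −0.51. All 20 had a mean of at least 10 FPKM, a level at which 31.6% of all genes were called lower and 25.2% higher. FARSA, a subunit of the phenylalanine enzyme, fell from 141 ± 6.16 to 75.0 ± 2.08 FPKM (SD, n = 3 each), which is −0.91 in log2 fold change (SE 0.06, limma, Benjamini-Hochberg adjusted p = 1.13e-04). TARS, the threonine enzyme, fell from 195 ± 10.9 to 105 ± 4.53 FPKM. EPRS, which charges both glutamate and proline, was the 1 gene that rose, from 95.1 ± 9.24 to 125 ± 2.2 FPKM.

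**Figure D5:**
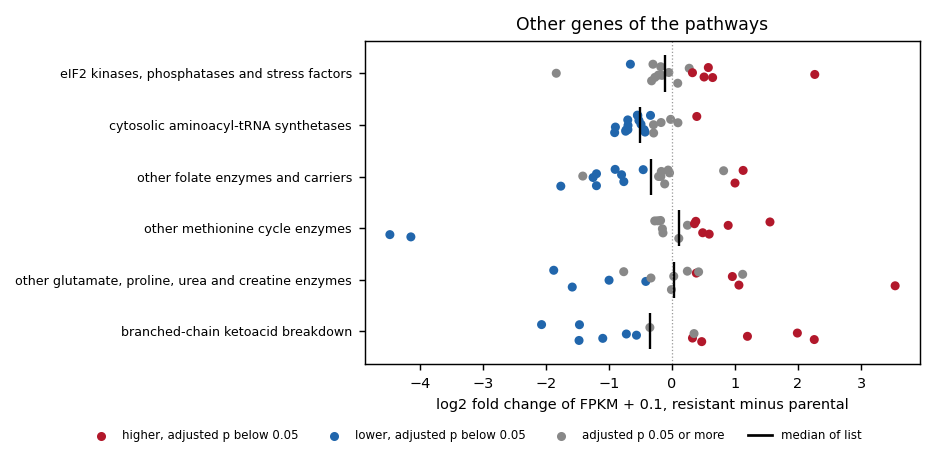
Log2 fold change of FPKM + 0.1, resistant minus parental, for the tested genes of 6 lists of other pathway genes, with a point for each gene, colours for the call and a black line at the median of each list. The aminoacyl-tRNA synthetases lie mostly left of 0 around a median of −0.51, and the branched-chain genes spread to both sides.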

How the data were processed

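RNA-Seq of 3 parental and 3 enzalutamide resistant C4-2B libraries was analysed. Single-end 50 bp reads were trimmed by the authors with TrimGalore and aligned with STAR to GRCh38 with GENCODE annotation, and Cufflinks gave the deposited FPKM values. The table names no unit. The submitters' processing notes name Trimmomatic 0.27, FastQC 0.10.1 and the build mm10, which the human gene identifiers and GRCh38 loci of the table contradict. The labels name both the TruSeq V2 and the TruSeq Stranded Total RNA kit. How the authors scaled libraries is not given in the sources used here. No 2 libraries held identical values.

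The comparison of libraries used limma 3.58.1 under R 4.3.3 (lmFit, eBayes with a mean-variance trend) on log2(FPKM + 0.1) for the 24468 genes whose mean reached 0.1 FPKM. Fold changes on this scale understate changes of low genes. p values are two-sided with Benjamini-Hochberg adjustment over all genes tested and a threshold of 0.05. The fit was checked on simulated data. Depth was estimated from values within 0.1 of whole reads, on transcripts of 600 to 8000 bases, which held for 40.1% to 56.6% of the low values used. Positions are from GENCODE v44 (GRCh38) and promoters from RefSeq (GRCh38.p14).

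Described in full were ATF4, ASNS, PHGDH, PSAT1, PSPH, SHMT2, MTHFD2 and, in each direction, the 8 members with the largest change among those past the threshold without overlap and with a mean of 1 FPKM or more in the higher group. In each list of other pathway genes, the 2 called genes per direction with the smallest adjusted p were named. GCSH, DLD, BCKDHA, MCCC1, DDIT4L and the overlapping genes were named after their values were seen. Members, lists and rules were chosen with earlier results of these data known, so counts over them are descriptions. Python 3.11.15, pandas 2.3.3, scipy 1.17.1 and matplotlib 3.10.9 were also used. Some genes covered by the lists are not reported here.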

Additional observations from a re-analysis of the deposited data

How the results depend on the processing

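Alternatives were pseudocounts of 1 and 0.01 FPKM, a mean of at least 1 FPKM or no filter, median-of-ratios scaling, quantile normalization, no variance trend, an adjusted p below 0.01, a replicate block and each library left out. Of the 27 members called, 24 (8 higher and 16 lower) kept their call under all 15. The exceptions were AHCY, VLDLR and NUPR1, which all missed an adjusted p of 0.01, and no member reversed. Without the variance trend, AHCY and NUPR1 also missed 0.05 (limma, Benjamini-Hochberg adjusted p = 0.137 and 0.0536). The members called numbered 11 higher and 18 lower under both other scalings. With each library left out there were 8 to 9 higher and 18 to 21 lower members, 4477 to 4990 higher and 4558 to 5200 lower genes in all, and a member median of −0.36 to −0.24. That median was −0.16 with median-of-ratios scaling and −0.20 with quantile normalization. At an adjusted p below 0.01, 3570 genes were lower. At that threshold, 0 synthetases were higher and 9 lower, 3 methionine cycle genes and 3 branched-chain genes were higher, and 2 glutamate and urea genes were higher and 2 lower. Without the variance trend, 0 synthetases and 3 branched-chain genes were higher. With a mean of at least 1 FPKM, 2 eIF2 genes were lower. With each library left out, 1 to 2 eIF2 genes were lower, 1 to 2 synthetases, 3 to 5 methionine cycle genes, 2 to 4 glutamate and urea genes and 3 to 5 branched-chain genes were higher. The cause of these moves was not tested.

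Same-numbered libraries of the groups did not deviate together (Pearson r of deviations across genes 0.00802, 0.0165 and −0.00301), so no pairing by number was seen. The correlation spans all genes tested, low and noisy ones included, and cannot exclude a pairing. With a replicate block, 8 members were higher and 17 lower, AHCY and VLDLR having lost their call (adjusted p = 0.0917 and 0.0627 from limma), 4670 and 4793 genes in all, and 2 glutamate and urea genes were lower. The lack of read counts limits low genes such as PRODH most.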
